A study of Mus musculus with 10 samples.

Results

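Pyruvate dehydrogenase and enzymes of the tricarboxylic acid (TCA) cycle were followed through 9 genes, all of which were found among the 19271 genes of the table after transcripts were summed by gene ID. The genes were chosen by name: Pdha1, Pdhb, Dlat, Dld and Pdhx of the pyruvate dehydrogenase complex, and Cs, Idh3a, Ogdh and Mdh2 of the cycle. Liver RNA of 10 mice of the C57BL6/N strain, aged 2 months, was sequenced after poly(A) selection. The groups were 1 female homozygous for S400D (S400D/S400D), 3 homozygous males, 3 heterozygous males (S400D/WT) and 3 wild-type males (WT/WT). S400D replaces a serine of HtrA2/Omi, a serine protease of the mitochondrial intermembrane space encoded by Htra2. The labels do not say how the line was made, nor the litter or hour of collection of any animal, so each p-value reflects no more than the variation among the libraries of a group.

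The pyruvate dehydrogenase complex sits in the mitochondrial matrix and turns pyruvate, the end product of glycolysis, into acetyl-CoA. Its E1 enzyme is a heterotetramer of alpha and beta chains, E2 transfers the acetyl group through lipoyl arms, E3 reoxidises the lipoyl arms, and kinases switch the complex off by phosphorylating E1 alpha. Citrate synthase then joins acetyl-CoA to oxaloacetate, and most dehydrogenases of the cycle reduce NAD+ to NADH. In liver the same carbon can leave the mitochondrion as citrate and feed fatty acid synthesis, and pyruvate can bypass the complex through pyruvate carboxylase towards glucose.

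Each library held 16240441 to 17264289 expected counts (estimated reads, not normalised). The lowest count of a member in any library was 334 (Idh3a) and the highest 4469 (Ogdh). The hepatocyte gene albumin (Alb) stood at 84700 to 106081 CPM (counts scaled by library size and TMM normalisation factors) in homozygous males, 86980.1 CPM in the homozygous female, 49658.3 to 74223.8 CPM in heterozygous males and 70057.1 to 79979.1 CPM in wild-type males. Of the 7 hepatocyte markers 4 had a positive log2 fold change between homozygous and wild-type males, with a median of 0.09 and 0 at an unadjusted p under 0.05. Summed levels of markers are given as TPM, an abundance corrected for transcript length and scaled to the same total in every library. The 8 Kupffer cell and macrophage markers summed to 249 to 269 TPM in homozygous males, 92.8 to 271 TPM in heterozygous males and 75.9 to 281 TPM in wild-type males, and 8 of 8 had a positive log2 fold change between homozygous and wild-type males. The 7 sinusoidal endothelial markers (7 of 7 positive) summed to 130 to 138 TPM in homozygous males, 72.3 to 119 TPM in heterozygous males and 44.6 to 130 TPM in wild-type males. The 7 stellate cell markers (6 of 7 positive) summed to 169 to 245 TPM in homozygous males, 98.6 to 183 TPM in heterozygous males and 58.0 to 151 TPM in wild-type males. The 5 cholangiocyte markers (1 of 5 positive) summed to 27.8 to 52.3 TPM in homozygous males, 34.8 to 46.8 TPM in heterozygous males and 42.5 to 50.3 TPM in wild-type males. The 4 erythroid markers (0 of 4 positive) summed to 604 to 731 TPM in homozygous males, 306 to 4620.1 TPM in heterozygous males and 186 to 4924.1 TPM in wild-type males. Some of these markers had an unadjusted p under 0.05 in edgeR's test of homozygous against wild-type males. They were 1 of 8 Kupffer, 2 of 7 endothelial, 2 of 7 stellate, 2 of 5 cholangiocyte and 1 of 4 erythroid markers. The share over all tested genes was 14.9%. No marker of these lists was at 0 in all libraries. In the homozygous female the Kupffer, endothelial, stellate, cholangiocyte and erythroid sums were 289, 95.3, 188, 40.6 and 859 TPM. The wild-type males differed among themselves. The Kupffer marker Clec4f had 74.2, 27.7 and 25.1 TPM in them, against 66.7, 73.4 and 69.0 TPM in the homozygous males. The clock genes Arntl (BMAL1) and Dbp, its output, differed between libraries as well. Arntl had 17.4, 26.1 and 38.1 CPM in the homozygous males, 1.59 CPM in the homozygous female, 1.17, 31.5 and 2.59 CPM in the heterozygous males and 2.64, 2.45 and 4.25 CPM in the wild-type males. Dbp had 4.63, 12.9 and 1.27 CPM in the homozygous males, 205 CPM in the homozygous female, 247, 6.02 and 105 CPM in the heterozygous males and 128, 148 and 158 CPM in the wild-type males. The homozygous males and heterozygous male 2 thus had high Arntl and low Dbp, and the other animals the reverse. The part of these markers and of clock phase in the results that follow was not tested.

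All 9 genes lie on nuclear chromosomes, with positions given for GRCm38.p6. The genes of the complex are Pdha1 (chrX:160122219-160138430), Pdhb (chr14:8165991-8173303), Dlat (chr9:50634633-50659780), Pdhx (chr2:103021055-103073513) and Dld (chr12:31331562-31351471). Those of the cycle are Cs (chr10:128337727-128362482), Idh3a (chr9:54586511-54604662), Ogdh (chr11:6291597-6359094) and Mdh2 (chr5:135778649-135790386).

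The 9 genes spanned a wide range of levels within the same liver, compared here as TPM. In wild-type males Mdh2, the mitochondrial malate dehydrogenase that closes the cycle, was the most abundant at 249 ± 21.5 TPM (SD, n = 3), followed by Pdhb (E1 beta) at 155 ± 13.8 TPM. Then came Dld (E3, shared with the 2-oxoglutarate and branched-chain dehydrogenases) at 79.0 ± 12.5 TPM, Cs (citrate synthase) at 74.9 ± 9.57 TPM, Pdha1 (E1 alpha) at 66.8 ± 9.77 TPM and Ogdh (E1 of 2-oxoglutarate dehydrogenase) at 63.5 ± 2.85 TPM. Idh3a, the alpha subunit of the NAD-dependent isocitrate dehydrogenase, was at 19.3 ± 0.839 TPM, Dlat (E2) at 18.6 ± 3.34 TPM and Pdhx (the protein that tethers E3 to the E2 core) at 17.0 ± 1.30 TPM. Mdh2 exceeded Pdhb, Pdhb exceeded Dld, and Ogdh exceeded Idh3a in 10 of 10 libraries, with ranges of the wild-type animals that did not overlap. The other neighbours in this order overlapped in wild-type males: Dld with Cs, Cs with Pdha1, Pdha1 with Ogdh, Idh3a with Dlat, and Dlat with Pdhx. Of the genes farther apart in it, Dld (66.2 to 91.2 TPM) did not overlap with Ogdh (60.3 to 65.8 TPM), nor Idh3a (18.5 to 20.2 TPM) with Pdhx (15.5 to 17.8 TPM). Within the complex the E1 beta transcript was above that of its partner E1 alpha, and the E2 and E3-binding transcripts had the lowest means.

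**Figure D1:**
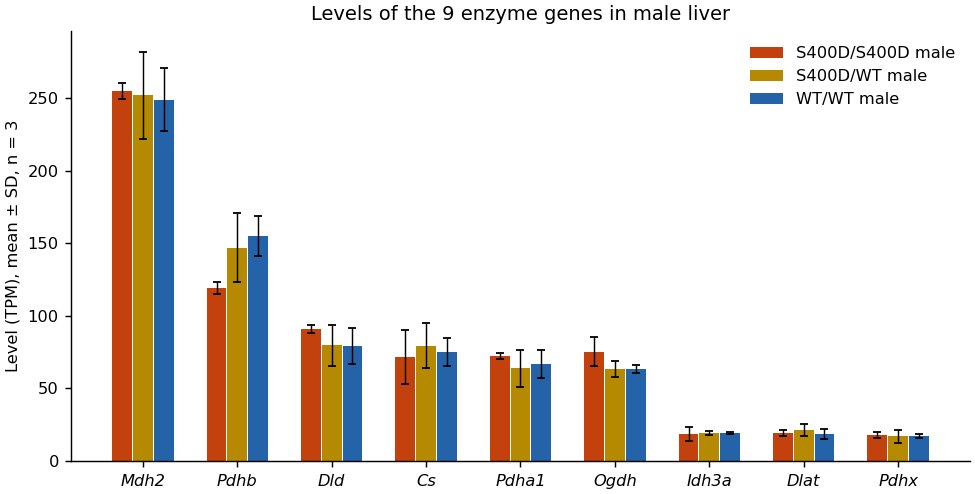
Level of each gene in TPM (vertical axis, linear, from 0) in male liver, as mean ± SD of 3 animals, with genes in order of their wild-type level. Mdh2 leads at 249 TPM in wild-type males and Pdhb follows at 155 TPM, while Idh3a, Dlat and Pdhx lie at 17.0 to 19.3 TPM.

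Homozygous males were first set against wild-type males, the contrast in which all HtrA2 carries S400D. Of the members, Pdhb had the lowest log2 fold change in it and was the only one whose groups did not overlap. Pdhb encodes E1 beta, which together with E1 alpha decarboxylates pyruvate. It had 99.9, 92.6 and 103 CPM in the homozygous males, against 132, 148 and 155 CPM in the wild-type males. The groups did not overlap, and the spread within the homozygotes was narrow. Its log2 fold change was -0.55 (SE 0.13), a fitted level 31.8% lower, with an unadjusted p of 0.00229 and an adjusted p of 0.18 in edgeR's quasi-likelihood test with Benjamini-Hochberg adjustment over 12427 genes, so it did not pass the threshold of 0.05. DESeq2, run as an alternative on the same counts, gave -0.55 with an adjusted p of 0.0202, and over 22 alternatives the adjusted p ran from 0.0202 to 0.552. In bulk liver, fewer cells of a type and less RNA per cell cannot be told apart. In all, 1 of 9 members did not overlap between the groups and lay lower, where 11.5% of all tested genes did, and 1 of 9 had an unadjusted p under 0.05, where 14.9% of all tested genes did.

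The homozygous female had 106 CPM of Pdhb, and the heterozygous males had 150, 109 and 143 CPM. As CPM the 4 homozygous animals thus lay below the other 6, but as TPM they did not: the homozygous males had 123, 114 and 119 TPM and the homozygous female 133 TPM, against 153, 121 and 168 TPM in the heterozygous males and 152, 143 and 170 TPM in the wild-type males. Heterozygous male 2 is the animal that lay among the homozygotes as TPM, and all 4 homozygotes stayed below the wild-type males. Heterozygous male 2, at 109 CPM, was the lowest animal with a wild-type allele and is also the heterozygote whose Arntl and Dbp levels were like those of the homozygous males. The female, at 106 CPM, had Arntl and Dbp levels like those of the wild-type males. The part of clock phase in the level of Pdhb was not tested.

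**Figure D2:**
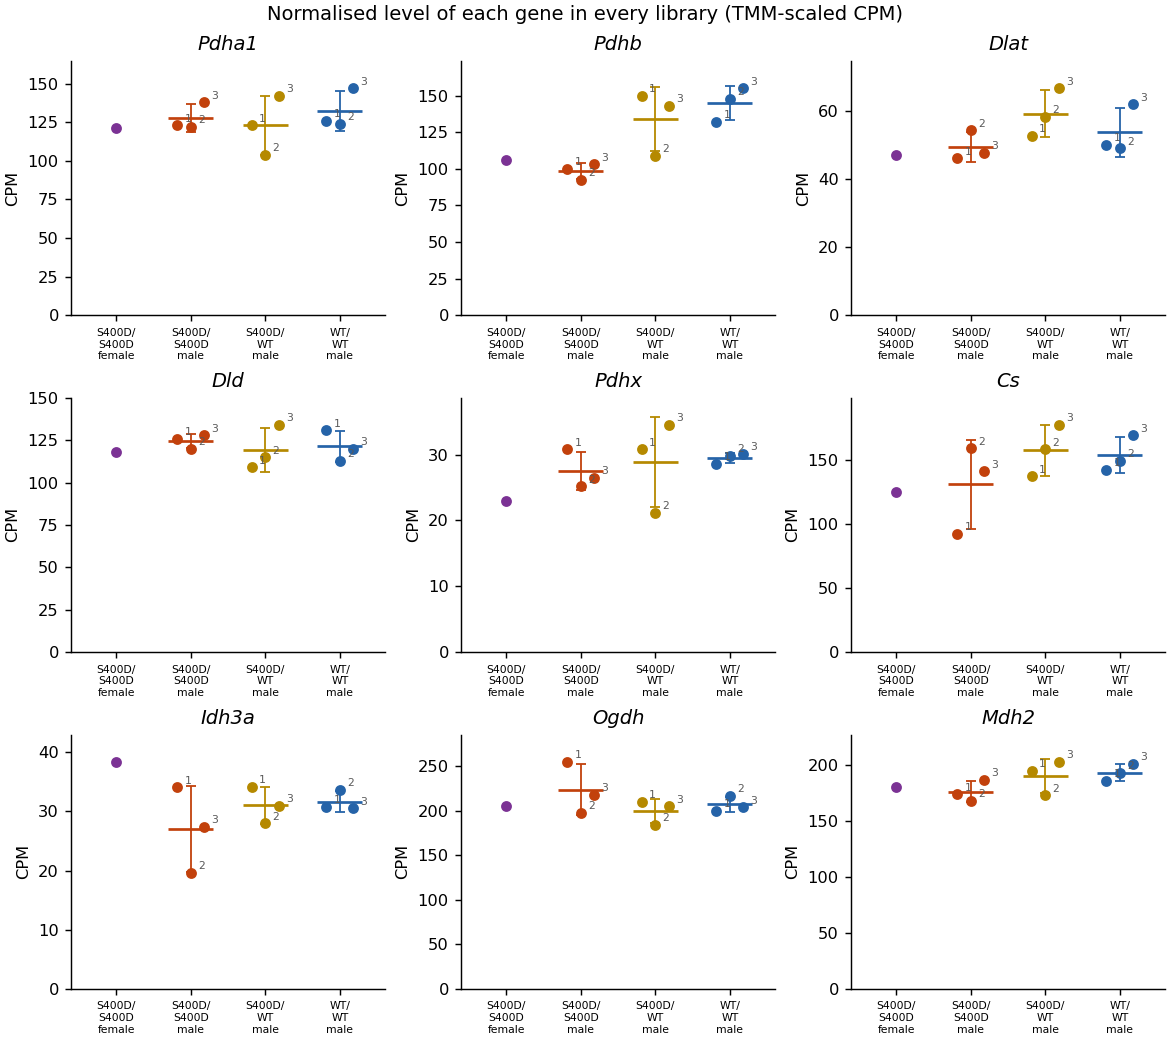
TMM-scaled CPM (vertical axis, linear, from 0) of each gene in every library, with points for single animals numbered by replicate, lines for group means and bars for SD of 3 males. Pdhb lies at 92.6 to 106 CPM in the 4 homozygous animals and at 109 to 155 CPM in the other 6, whereas the groups overlap for the other 8 genes in males.

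Pdha1, the X-linked gene of E1 alpha and the chain that carries the regulatory phosphorylation sites, had 123, 122 and 138 CPM in homozygous males, against 126, 124 and 147 CPM in wild-type males, a log2 fold change of -0.05 (SE 0.13, adjusted p = 0.893 in edgeR's test). The groups overlapped. The ratio of Pdhb to Pdha1 was taken within each library, where it does not depend on the scaling between libraries. In TPM it was 1.72, 1.62 and 1.58 in the homozygous males, 1.86 in the homozygous female, 2.60, 2.23 and 2.15 in the heterozygous males and 2.22, 2.54 and 2.25 in the wild-type males. All 4 homozygous animals lay below all 6 others. The ratio averaged 1.64 ± 0.074 in homozygous and 2.34 ± 0.177 in wild-type males (SD, n = 3 each), a log2 difference of -0.51. The exact two-sided permutation test gave p = 0.1, the smallest that 3 animals against 3 allow, and 0.3 after adjustment over 6 tests of ratios. The pair was chosen when Pdhb was already known to be lower in these data. With Pdha1 nearly level, the ratio largely repeats the difference of Pdhb and is no separate support for it. Against heterozygous males, whose ratio averaged 2.33 ± 0.238, the log2 difference was -0.50 (exact permutation p = 0.1, adjusted p = 0.3), and heterozygous and wild-type males differed by -0.01 (exact permutation p = 0.9, adjusted p = 1.0).

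**Figure D3:**
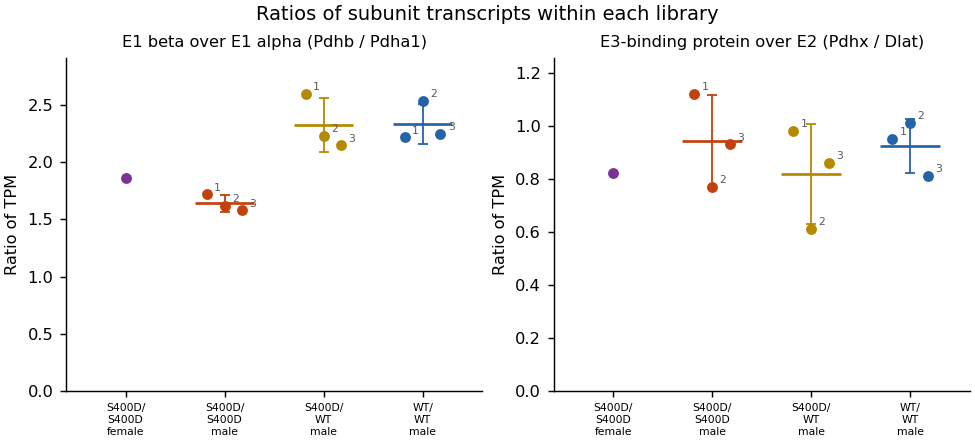
Ratio of TPM values (vertical axis, linear, from 0) of Pdhb over Pdha1 and of Pdhx over Dlat within each library, with points for single animals, lines for group means and bars for SD of 3 males. Pdhb over Pdha1 is 1.58 to 1.86 in the homozygous animals and 2.15 to 2.60 in the others, while Pdhx over Dlat overlaps between all male groups.

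The upstream sequences of the pair are shown because the products of these genes form E1 together and their ratio is the measurement above. Each line gives the 250 bases before the annotated start, from RefSeq for GRCm38.p6, on the minus strand of chr14:8172993-8173242 for Pdhb and of chrX:160138431-160138680 for Pdha1; the Pdhb stretch lies inside the annotated span of the gene. Shown are CCAAT and GGGCGG matches on either strand, in capitals (ATTGG is CCAAT on the other strand).
Pdhb: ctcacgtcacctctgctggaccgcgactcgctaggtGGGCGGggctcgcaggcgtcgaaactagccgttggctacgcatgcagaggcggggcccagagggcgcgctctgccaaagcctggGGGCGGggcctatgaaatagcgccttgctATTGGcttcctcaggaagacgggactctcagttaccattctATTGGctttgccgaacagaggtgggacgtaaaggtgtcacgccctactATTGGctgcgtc
Pdha1: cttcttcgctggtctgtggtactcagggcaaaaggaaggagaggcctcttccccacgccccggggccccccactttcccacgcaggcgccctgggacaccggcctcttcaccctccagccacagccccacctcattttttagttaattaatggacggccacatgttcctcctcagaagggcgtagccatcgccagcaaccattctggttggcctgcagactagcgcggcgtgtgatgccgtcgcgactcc
The Pdhb stretch held 3 matches to CCAAT (the motif of NF-Y, present in 33.8% of 32851 upstream stretches of the same length) and 2 to GGGCGG (the GC box bound by SP1, in 32.7%), and the Pdha1 stretch held 0 of each. Among the 8 members with an upstream stretch in the table, 4 held CCAAT and 6 held GGGCGG, so neither is particular to Pdhb. Both had a GC content of 61.6%, against a median of 52.4% over all stretches. Of these 8 members 0 held the NRF1 motif (in 3.7% of all stretches), 0 held TCAAGGTCA (bound by ERR alpha, in 0.4%), 0 held TTATGNAA (a D-box, bound by DBP, in 3.1%) and 1, Ogdh, held CACGTG (an E-box, bound by BMAL1 with CLOCK, in 6.0%). The 8 members had 13 stretches, since Ogdh had several annotated starts. A member was counted if any of its stretches held the motif, whereas each percentage is over single stretches. The Ogdh stretch before its first start (chr11:6291347-6291596) did not hold CACGTG. Both strands were searched, and no match overlaps another in the stretches shown. Idh3a was not among the 8. A match or its absence describes these letters only.

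For the E2 and E3 parts of the complex the homozygous and wild-type males overlapped. Dlat, the E2 acetyltransferase that forms the core, had 46.1, 54.4 and 47.7 CPM in homozygous males, against 50.1, 49.1 and 62.0 CPM in wild-type males (log2 fold change -0.12, SE 0.13). Dld, the E3 flavoprotein, had 126, 120 and 128 CPM in homozygous males, against 131, 113 and 120 CPM in wild-type males (0.04, SE 0.11). Pdhx, the E3-binding protein, had 30.8, 25.2 and 26.5 CPM in homozygous males, against 28.6, 29.8 and 30.1 CPM in wild-type males (-0.10, SE 0.17). The fold changes of these 3 genes were no larger than their SE, and their adjusted p values were 0.676, 0.872 and 0.804 in edgeR's test. Pdhx over Dlat, the 2 transcripts of the core, averaged 0.94 ± 0.172 in homozygous and 0.93 ± 0.105 in wild-type males (SD, n = 3 each), with an exact permutation p of 1.0.

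Among the enzymes of the cycle, the differences of Cs and Ogdh from wild type each depended on 1 homozygous male. That of Idh3a changed with which homozygous male was left out. Citrate synthase (Cs) had 92.3, 159 and 141 CPM in homozygous males, against 142, 149 and 169 CPM in wild-type males (log2 fold change -0.23, SE 0.19, adjusted p = 0.592 in edgeR's test). The low value belonged to homozygous male 1, without which the log2 fold change was -0.03. Idh3a had 34.1, 19.6 and 27.4 CPM in homozygous males, against 30.8, 33.7 and 30.5 CPM in wild-type males (-0.23, SE 0.18, adjusted p = 0.559). Here homozygous male 2 was low, and the log2 fold change was -0.04 without it and -0.43 without homozygous male 1, with an unadjusted p of 0.0222 and an adjusted p of 0.336 in the second case. Ogdh had 255, 198 and 218 CPM in homozygous males, against 200, 217 and 204 CPM in wild-type males (0.12, SE 0.12, adjusted p = 0.655), and 0.01 without homozygous male 1, the highest of them. Mdh2 had 174, 168 and 187 CPM in homozygous males, against 186, 193 and 201 CPM in wild-type males (-0.13, SE 0.10, adjusted p = 0.561), groups that overlapped by the highest homozygote alone.

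With TMM-scaled counts 7 of 9 members had a negative log2 fold change and the median was -0.12, against 49.3% of all tested genes and a median of 0.00. The direction depended on the scaling: 6 of 9 were negative as FPKM and 3 of 9 as TPM. Between these groups the median of all tested genes was 0.06 as FPKM and 0.17 as TPM, which is scaled to a fixed sum. Relative to the median of all genes, 7 of 9 members were lower with each of the 3 units. For a given gene these units differ almost only by a factor per library. Their agreement was thus largely fixed in advance and is no separate support. EdgeR called 0 of 9 members and 0 of 12427 genes (0% called), with 1852 genes at an unadjusted p under 0.05, while limma-voom called 0 genes and DESeq2 308, Pdhb among them.

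**Figure D4:**
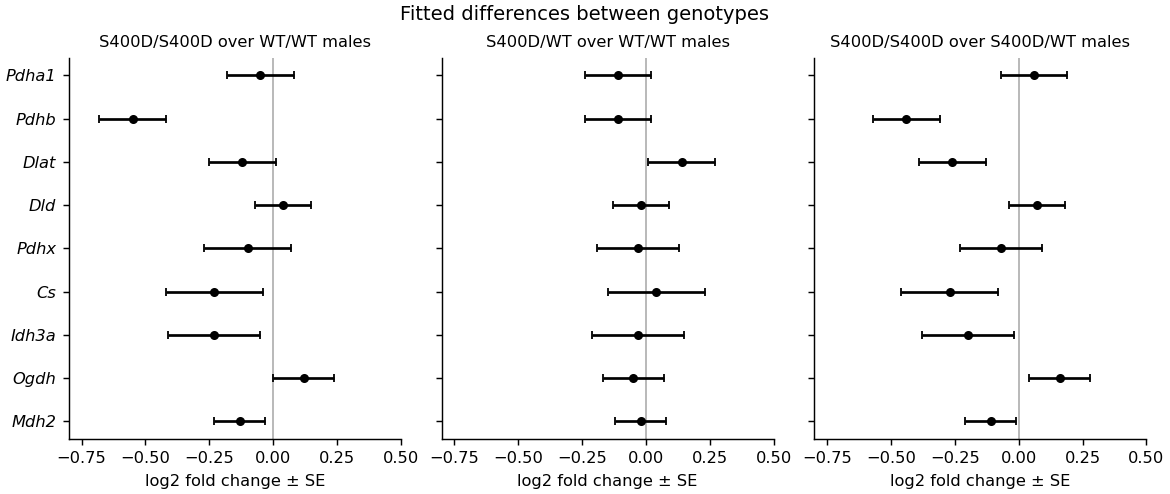
Fitted log2 fold change ± SE (horizontal axis) of each gene in the 3 comparisons among males, from edgeR's fit of 9 animals. Pdhb lies at -0.55 in homozygous over wild-type and at -0.44 in homozygous over heterozygous males, and all 9 genes lie between -0.11 and 0.14 in heterozygous over wild-type males.

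Heterozygous were next set against wild-type males, which differ by 1 S400D allele. The members' log2 fold changes ran from -0.11 (Pdhb, SE 0.13, adjusted p = 0.972 in edgeR's test) to 0.14 (Dlat, SE 0.13, adjusted p = 0.972), with a median of -0.03 against 0.01 over all tested genes, and 7 of 9 were negative, as were 48.4% of all tested genes. As TPM 3 and as FPKM 2 of the 9 were negative. Of the 9 members 0 had an unadjusted p under 0.05, where 4.19% of all tested genes did, and 0 had groups that did not overlap, where 10.4% of all tested genes did. EdgeR called 0 of all genes (0%), with 521 at an unadjusted p under 0.05, limma-voom called 0 and DESeq2 called 7. Pdhb averaged 134 ± 22.1 CPM in heterozygous and 145 ± 11.5 CPM in wild-type males (SD, n = 3 each), and without heterozygous male 2 its log2 fold change was 0.02. Pdhx ran from 21.2 to 34.5 CPM in heterozygous males, against 28.6 to 30.1 CPM in wild-type males.

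Homozygous were also compared with heterozygous males, a contrast that uses the same homozygous animals as the first. Pdhb had a log2 fold change of -0.44 (SE 0.13, unadjusted p = 0.0082, adjusted p = 0.161 in edgeR's test), with 92.6 to 103 CPM in homozygous and 109 to 150 CPM in heterozygous males. As CPM these groups did not overlap, as was so for 11.7% of all tested genes in the lower direction and for 1 of 9 members, whereas as TPM they overlapped. Dlat had the next smallest p and was at -0.26 (SE 0.13, adjusted p = 0.334), with 46.1, 54.4 and 47.7 CPM in homozygous and 52.8, 58.3 and 66.7 CPM in heterozygous males, which overlapped. Cs was at -0.27 (SE 0.19) and Ogdh at 0.16 (SE 0.12). Negative log2 fold changes were found in 6 of 9 members and in 49.6% of all tested genes. Of the 9 members 1 had an unadjusted p under 0.05, where 17.2% of all tested genes did, and edgeR called 0 genes (0%), with 2134 at an unadjusted p under 0.05, limma-voom 0 and DESeq2 545, with 0 members among them.

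The homozygous female was set against the 3 homozygous males, with all 10 libraries fitted together, where the single female library has no spread of its own and borrows that of the males. Idh3a was highest in the female of all animals, at 38.4 CPM against 34.1, 19.6 and 27.4 CPM in the homozygous males (log2 fold change 0.51, SE 0.24, unadjusted p = 0.0671, adjusted p = 0.522 in edgeR's test). Pdhx was at 23.0 CPM in the female, against 30.8, 25.2 and 26.5 CPM in the homozygous males (-0.26, SE 0.24, adjusted p = 0.772). Pdhb was at 106 CPM in the female, above the homozygous males (0.11, SE 0.19, adjusted p = 0.902). Of the 9 members 0 had an unadjusted p under 0.05, where 10.3% of the 12954 tested genes did, and 0 were among the 10 genes called (0.0772%). Negative log2 fold changes were found in 6 of 9 members and in 51.7% of tested genes. The Cs sum of the female contained 4.81 TPM of a predicted transcript (XM_030244861), 6.73% of its Cs, which was listed at 0 in all 9 males.

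Most members were measured through a single transcript, and Ogdh was the exception. Curated transcripts made up at least 98.36% of the level of Pdha1, Pdhb, Dlat, Dld, Pdhx, Idh3a and Mdh2 in every library. Ogdh had 15 transcripts, of which a predicted one (XM_030245648) held most of the level and the curated NM_010956 came next. The leading transcript took 73.8%, 73.4% and 74.7% of the Ogdh TPM in the homozygous males, 84.8% in the homozygous female, 86.5%, 79.1% and 82.5% in the heterozygous males and 80.2%, 82.6% and 83.8% in the wild-type males. The homozygous males were the lowest 3 of 10 libraries, and the homozygous female was not among them. NM_010956 took 17.4%, 14.9% and 15.9% in the homozygous males, 11.2% in the female, 8.04%, 13.5% and 11.2% in the heterozygous males and 11.7%, 10.8% and 10.9% in the wild-type males. Behind these shares stood 739 to 1129.9 expected counts of NM_010956 in homozygous males, 606 in the homozygous female, 420 to 626 in heterozygous males and 542 to 596 in wild-type males. The share of the leading transcript averaged 73.9% ± 0.648 in homozygous males, 82.7% ± 3.70 in heterozygous males and 82.2% ± 1.87 in wild-type males (SD, n = 3 each). Exact permutation tests, added to what was planned as a description, gave p = 0.1 for homozygous against wild-type and against heterozygous males, the smallest that 3 animals against 3 allow, and 1.0 for heterozygous against wild-type males. NM_010956 had p = 0.1, 0.1 and 0.9 in the same exact tests, and after adjustment over the 6 tests each 0.1 became 0.15. As unplanned tests on parts of the same total, they are not independent of each other or of the description above. Heterozygous male 2 came closest to the homozygous males in both shares, and the female, whose clock genes resembled those of wild-type males, did not. The part of clock phase in these shares was not tested. Counts of overlapping transcripts were divided by the authors' program, so the split between them is less certain than the gene sum.

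**Figure D5:**
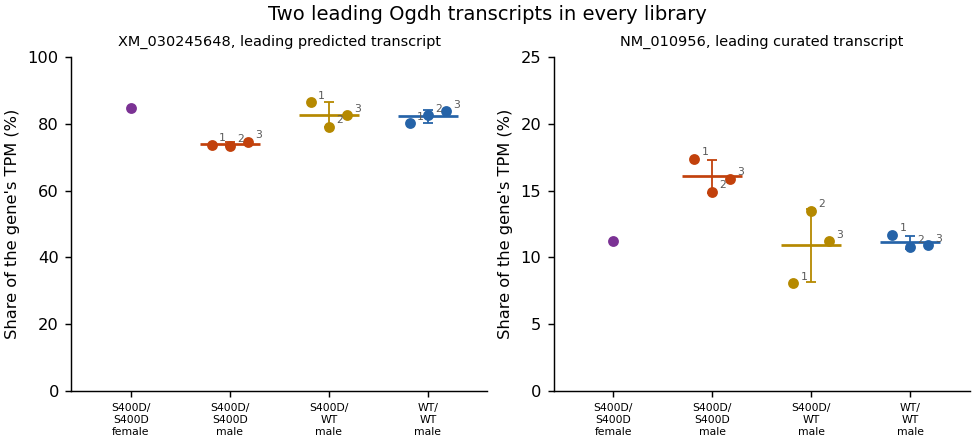
Share of the Ogdh TPM in percent (vertical axes, linear, from 0, with different ranges) taken by XM_030245648 and by NM_010956 in every library, with points for single animals, lines for group means and bars for SD of 3 males. The homozygous males lie at 73.4 to 74.7% and 14.9 to 17.4%, and the homozygous female lies with the other genotypes at 84.8% and 11.2%.

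The other genes around the complex and the cycle were read from lists of 55 genes, 53 of which could be tested. Between homozygous and wild-type males 32 of the 53 had a negative and 21 a positive log2 fold change (median -0.08), edgeR called 0, and 8 in the lower and 3 in the higher direction had an unadjusted p under 0.05, where 8.08% and 6.82% of all tested genes did. Of the 13 other enzymes of the cycle 10 were negative (median -0.13), and Sdhb, the iron-sulfur subunit of succinate dehydrogenase, was the gene of this list at an unadjusted p under 0.05. It averaged 155 ± 18.6 CPM in homozygous and 206 ± 21.3 CPM in wild-type males (SD, n = 3 each), a log2 fold change of -0.40 (SE 0.13, adjusted p = 0.24).

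Pdk4, a kinase that inactivates the complex and is known to be induced by fasting, had 6.91, 8.73 and 10.1 CPM in homozygous males, 4.03 CPM in the homozygous female, 1.54, 10.3 and 3.44 CPM in heterozygous males and 3.93, 0.515 and 1.35 CPM in wild-type males. The homozygous males lay above the wild-type males (log2 fold change 2.13, SE 0.75, unadjusted p = 0.0183, adjusted p = 0.26 in edgeR's test), and heterozygous male 2 lay with them. Pdpr, the regulatory subunit of the phosphatase that reactivates the complex, had 38.1, 36.0 and 43.9 CPM in homozygous males, 28.2, 25.1 and 30.2 CPM in heterozygous males and 32.0, 31.4 and 31.6 CPM in wild-type males. Its log2 fold change was 0.31 against wild type (SE 0.10, adjusted p = 0.254) and 0.50 against heterozygotes (SE 0.10, unadjusted p = 0.000894, adjusted p = 0.105). The homozygous males did not overlap with either group, and the female was at 34.6 CPM. Of the 6 tested regulators 3 were negative and 3 positive between homozygous and wild-type males.

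Of the 8 genes of citrate export and cytosolic isoenzymes 7 were negative between homozygous and wild-type males (median -0.33), among them ATP citrate lyase Acly (log2 fold change -1.20, SE 0.36), the citrate carrier Slc25a1 (-0.65, SE 0.22) and the cytosolic malate dehydrogenase Mdh1 (-0.37, SE 0.13), with adjusted p values of 0.229, 0.254 and 0.258 in edgeR's test. Slc25a1 had 83.9, 153 and 126 CPM in homozygous males, against 152, 212 and 206 CPM in wild-type males, which overlapped narrowly. Of the 12 genes of pyruvate supply and anaplerosis 6 were negative and 6 positive. They included pyruvate kinase Pklr (-1.86, SE 0.55, adjusted p = 0.227) and malic enzyme Me1 (-1.10, SE 0.33, adjusted p = 0.227). Of the 5 lipoylation genes Mecr, a reductase of mitochondrial fatty acid synthesis, was at -0.29 (SE 0.12, adjusted p = 0.294). Of the 9 tested genes of sister complexes, the glycine cleavage genes Gldc (0.91, SE 0.31, adjusted p = 0.257) and Gcsh (-0.32, SE 0.13, adjusted p = 0.289) had opposite signs.

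Over the 36 pairs of members, Pearson's r of log2 CPM ran from -0.78 (Cs with Ogdh) to 0.89 (Pdhb with Mdh2), with a median of 0.26. These values describe 10 libraries that share genotype groups and scaling. Among the 11594 genes that averaged 1 CPM or more, those whose pattern was most like that of Pdhb were Pfkfb3 (r = 0.95) and Vps25 (r = 0.95), with Spearman's rho of 0.87 and 0.90, and r of 0.92 and 0.94 without the 2 libraries farthest from the median of Pdhb. For Mdh2 they were Cycs (r = 0.92), the gene of cytochrome c, and Ndufab1 (r = 0.90), the mitochondrial acyl carrier protein. For Cs they were Aqp8 and Acsl5 (0.96 and 0.95), for Ogdh Etf1 (0.96), for Idh3a Exosc4 and Hopx (0.95 each) and for Dld Ap3s1 and Hspa12b (0.97 and 0.94). For Dlat they were Frmd4b and Ndufa12 (0.90 and 0.85), for Pdhx Ywhab and Rcan1 (0.90 and 0.89) and for Pdha1 Fam89b and Fbxo34 (0.86 and 0.85). Without the 2 farthest libraries r was 0.53 and 0.56 for Pdha1, 0.76 and 0.69 for Dlat and 0.74 for Ogdh with Etf1. For the other genes named it was 0.83 (Ywhab) or above. Each is the highest of 11594 genes over 10 libraries, so such values are high in part by selection.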

How the data were processed

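The deposited table gives expected counts (estimated reads per transcript, not normalised), FPKM and TPM for 77712 transcripts in each library, as the authors computed them; HISAT, Bowtie2 and the build GRCm38.p6 are listed in the submitters' processing notes, without versions, and the estimating program and any use of strand are not stated there. Transcripts were summed by gene ID to 19271 genes, 19214 of which matched a RefSeq symbol, and the expected counts the authors deposited were rounded to whole numbers. The main test was edgeR 4.0.16 (R 4.3.3; quasi-likelihood, TMM, its filter by group, Benjamini-Hochberg, threshold 0.05) on 9 males with genotype as the term (12427 genes), and on all 10 libraries for the female (12954 genes). It was tested on simulated data. SE is from the fit. Levels between genes are the authors' deposited TPM; within a gene CPM with TMM factors. Ratios used exact permutation tests, as did the transcript shares of Ogdh, whose tests were not planned. Alternatives were DESeq2 1.42.0, limma 3.58.1 (voom, and log2(FPKM + 1) or log2(FPKM + 0.1) of the authors' FPKM values with and without a filter of 1 FPKM in 3 libraries), other normalisation and filters, removal of a trend on transcript length, a replicate block, other sets of libraries and omission of each animal. Named were all members, up to 3 genes per list with the smallest p under 0.05 in homozygous against wild-type males, the markers and clock genes given, and the 2 genes most like each member, of which 1 is not reported here. The members and lists were chosen with earlier results of these data known. Replicate numbers did not pair the animals.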

Additional observations from a re-analysis of the deposited data

How the results depend on the processing

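Of the members, Pdhb kept a negative log2 fold change under all 22 alternatives between homozygous and wild-type males (-0.61 to -0.47) and between homozygous and heterozygous males (-0.57 to -0.36), with an unadjusted p under 0.05 in all 22 of each. A stable sign was not particular to Pdhb. Against wild type, Pdhx (-0.19 to -0.04), Cs (-0.39 to -0.03), Idh3a (-0.43 to -0.04) and Mdh2 (-0.17 to -0.02) also stayed negative. Against heterozygotes, Dlat (-0.34 to -0.17), Cs (-0.43 to -0.07), Idh3a (-0.40 to -0.01) and Mdh2 (-0.17 to -0.01) did so. Ogdh stayed positive in both. With DESeq2 Pdhb passed in the first comparison (members called 1). Genes called with DESeq2 were 308 for homozygous against wild-type males, 7 for heterozygous against wild-type males, 545 for homozygous against heterozygous males and 99 for the female against homozygous males. With log2(FPKM + 1) and no filter they were 1, 0, 1 and 30, and the female comparison gave 5 with a filter of 1 CPM in 3 libraries and 6 with log2(FPKM + 0.1). Without each animal in turn, genes called were 0 to 18 for homozygous against wild-type (18 without wild-type male 1, 2 without homozygous male 2), 0 to 6 for homozygous against heterozygous males (6 without homozygous male 2) and 7 to 12 for the female. Members at an unadjusted p under 0.05 were 1 to 2 in the first and 1 to 2 in the second of these sets, and 0 to 1 for the female; they were 2 with the length trend removed (Pdhb and Dlat, homozygous against heterozygous males) and 1 (Idh3a) for the female with library size alone or any FPKM fit. Where no value is given beside a change, the cause was not tested. The members' median between homozygous and heterozygous males ranged from -0.25 (without heterozygous male 2) to -0.01. Pdha1 changed sign between homozygous and wild-type males with library size alone (0.01) or FPKM (0.02), and ranged from -0.11 to 0.05 without each animal; likewise Dlat (-0.20 to 0.01) and Dld (-0.01 to 0.10), and, between homozygous and heterozygous males, Pdha1 (-0.05 to 0.17) and Pdhx (-0.25 to 0.08). Pdhb between heterozygous and wild-type males ranged from -0.20 to 0.02. Homozygous over wild-type means as CPM in place of TPM were -0.05 for Pdha1, -0.56 for Pdhb, -0.10 for Pdhx and -0.13 for Mdh2 on the log2 scale, which TPM gave as 0.11, -0.39, 0.07 and 0.03. Ogdh from curated transcripts alone, which leaves out its predicted leading transcript, gave 0.75. Its leading curated transcript NM_010956 averaged 12.187 TPM in homozygous and 7.063 TPM in wild-type males. Log2 differences of Pdhb over Pdha1 between heterozygous and wild-type males ranged from -0.09 to 0.05, and of Pdhx over Dlat between homozygous and wild-type males from -0.12 to 0.14, without each animal. A replicate block, from numbers that did not pair the animals (correlations of deviations -0.438 to 0.195), gave -0.56 for Pdhb (adjusted p = 0.301) and 0 genes called in each comparison of males, so it changed no call.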
